A study of Mus musculus with 12 samples.

Results

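The 50 genes described here encode the working parts of the lysosome. They were chosen by symbol for the known role of their products, as 26 soluble hydrolases (with the saposin precursor Psap), 8 proteins of the lysosomal membrane and 16 subunits or accessory proteins of the vacuolar H+-ATPase (V-ATPase). All 50 were among the 12960 genes in the deposited counts, and all 50 were among the 10822 genes that passed the filter on low counts. Bone marrow-derived macrophages (BMDMs) of WT mice and of mice null for AMPKβ1 in the whole body (labelled AMPK B1 KO, here AMPKβ1-/-) were differentiated for 7 days with L929 medium as the source of M-CSF. They then received vehicle (0.1% DMSO) or 10 µM PF-06409577 (PF), an activator selective for AMPK complexes that hold the β1 subunit, for 6 h. RNA sequencing gave 3 libraries in each of the 4 groups. The labels do not say whether the 3 libraries of a group came from separate mice or cultures, so p-values measure the spread between these libraries, which may be technical.

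Lysosomes are acidic compartments in which macrophages break down what they engulf and what autophagy delivers. Soluble hydrolases cut proteins, sugars and lipids at low pH, heavily glycosylated membrane proteins such as LAMP1 and LAMP2 line the compartment, and the V-ATPase pumps protons into it. The pump has a membrane sector, V0, through which protons pass, and a cytosolic sector, V1, which hydrolyses ATP and can detach from V0. Many lysosomal genes carry an E-box, the letters CACGTG, near their start, which is the core of the element bound by TFEB and its relatives, and AMPK is known to act on that pathway.

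Promoters are shown first. The choice of genes did not use this E-box, but it is known from lysosomal genes, so its share here is a description and not a test. RefSeq promoters on GRCm38.p6, from 250 bases before to 50 after the start of a gene, were at hand for 42 of the 50 genes. CACGTG, which reads the same on both strands, was in 13 of these 42 promoters (31.0%), against 2187 of the promoters of 27025 genes (8.09%). These 27025 are all genes with a promoter at hand, more than the 12960 in the counts. The longer palindrome TCACGTGA, which contains CACGTG, was in 7 of 42 (16.7%) against 304 (1.12%). By class, CACGTG was in 7 of 23 hydrolase promoters, 2 of 8 membrane protein promoters and 4 of 11 V-ATPase promoters. The stretches below, each ending before the annotated start, belong to genes whose transcripts are described further on, with CACGTG in capitals.
Lamp1: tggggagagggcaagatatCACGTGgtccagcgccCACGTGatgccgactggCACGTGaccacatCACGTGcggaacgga
Mcoln1: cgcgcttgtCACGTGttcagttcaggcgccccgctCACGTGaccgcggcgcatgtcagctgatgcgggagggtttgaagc
Atp6v0b: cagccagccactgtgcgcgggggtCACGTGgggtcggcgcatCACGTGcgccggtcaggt
Atp6v1a: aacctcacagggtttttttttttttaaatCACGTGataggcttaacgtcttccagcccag
Ctsd: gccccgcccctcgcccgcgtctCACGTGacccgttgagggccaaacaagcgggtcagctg
Gla: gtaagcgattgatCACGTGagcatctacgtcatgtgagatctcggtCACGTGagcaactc
The Lamp1 stretch (chr8:13159081-13159160 on the + strand) holds 4 copies within 80 bases, the highest number among the 42 promoters. Mcoln1 (chr8:3500439-3500518 on the + strand), Atp6v0b (chr4:117887330-117887389 on the - strand) and Gla (chrX:134601186-134601245 on the - strand) hold 2 each in the stretch shown, and Atp6v1a (chr16:44139360-44139419 on the - strand) and Ctsd (chr7:142387888-142387947 on the - strand) hold 1. A match is a description of letters and not a measured binding site, and a promoter without it says only that these letters are not in that window.

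The samples were first checked against their labels. Prkab1, which encodes AMPKβ1, was at 37.3 to 45.3 CPM (counts scaled to library size with TMM factors) in the 6 WT libraries and at 6.05 to 9.42 CPM in the 6 AMPKβ1-/- libraries. All 6 macrophage markers looked at (such as Adgre1 and Csf1r) were measured, with a summed level of 8331 to 12218 CPM over the 12 libraries, whereas granulocyte and dendritic cell markers summed to at most 0.958 and 1.28 CPM and fibroblast markers to between 0.923 and 8.66 CPM. The 6 lymphoid markers were not analysed here. Libraries held 8935609 to 14358180 counts. They also differed in how counts depended on the GC content of the transcripts, with slopes of log2 counts per 10 points of GC of 0.36 to 0.73 with vehicle and -0.052 to 0.37 with PF in WT, against -0.36 to -0.11 with vehicle and -0.52 to -0.34 with PF in AMPKβ1-/- BMDMs. Because this trend moves with genotype and treatment, the main fold changes below are also given after the trend of each library in GC content and gene length was removed. How much of the trend arose in library preparation and how much in the cells cannot be told apart.

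Lysosomal transcripts made up a large part of the RNA. With vehicle, the 50 genes took 7.19% ± 0.15 (SD, n = 3) of all counts in WT BMDMs and 6.18% ± 0.073 (n = 3) in AMPKβ1-/- BMDMs, and with PF they took 7.46% ± 0.19 and 6.11% ± 0.038 (n = 3 each). The highest AMPKβ1-/- library was at 6.25% and the lowest WT library at 7.06%, so the genotypes did not overlap in counts that still held the GC trend. Hydrolases held most of this share, 5.61% ± 0.086 in WT with vehicle, while the V-ATPase held 0.56% ± 0.021. Ctsb, Ctsd, Psap and Ctss together took 4.22% in WT and 3.55% in AMPKβ1-/- BMDMs with vehicle, so these 4 weigh heavily in the total. Per kilobase of exon in WT BMDMs with vehicle, the aspartic protease Ctsd was the most abundant at 6630.1 ± 561 CPM per kb, followed by the saposin precursor Psap at 4823 ± 203 and the cysteine protease Ctsb at 2534 ± 102. These 3 levels were further apart than their SDs. Without a length term Ctsb stood above Psap, since its annotated exons are longer. Length here is that of all annotated exons of a gene together, which can exceed the expressed transcript. Levels per kb also carry the GC trend, with slopes of 0.36 to 0.73 in these WT vehicle libraries, so they rank genes only roughly.

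The same scale spread each class widely. Among membrane proteins Cd68, a heavily glycosylated protein of macrophage endosomes and lysosomes, came first at 2199.7 ± 159.7 CPM per kb, then Laptm5 at 1037 ± 114 and Lamp1 at 931 ± 48.4, where Laptm5 and Lamp1 lay within 1 SD of each other. Lamp2, whose splice forms are not resolved by counts per gene, stood far lower at 21.2 ± 3.70 CPM per kb, and the cystine exporter Ctns at 17.5 ± 0.450 and the calcium channel Mcoln1 at 10.6 ± 0.903 were the lowest of the class. In the V-ATPase the proton-carrying ring subunit Atp6v0c led at 445 ± 49.3 CPM per kb, and the next pair, the accessory protein Atp6ap1 at 246 ± 17.5 and the ring subunit Atp6v0b at 244 ± 29.1, did not differ beyond their spread. Atp6v0d1, the form of the d subunit found in most cells, was at 205 ± 25.8 CPM per kb and its relative Atp6v0d2, known from osteoclasts and some macrophages, at 5.52 ± 0.766. The lowest hydrolases were the collagen-degrading protease Ctsk at 10.3 ± 1.32, the iduronate sulfatase Ids at 4.67 ± 1.29 and the α-galactosidase Gla at 0.383 ± 0.0497 CPM per kb. For these low genes the counts behind a value were small, 10 to 28 per library for Gla in WT BMDMs with either treatment and 1 to 14 in AMPKβ1-/- BMDMs.

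**Figure D1:**
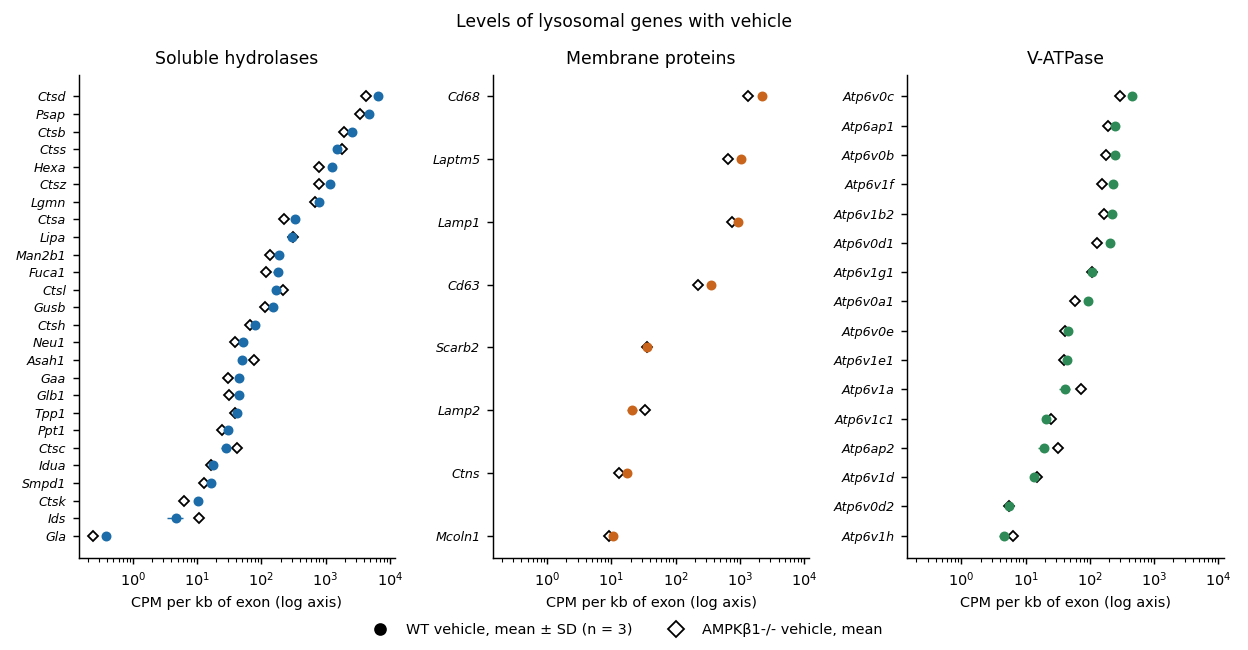
Level of each of the 50 genes with vehicle, in CPM per kb of exon on a log axis, with filled circles for the mean ± SD of the 3 WT libraries and open diamonds for the mean of the 3 AMPKβ1-/- libraries. Levels run from 0.383 CPM per kb for Gla to 6630.1 for Ctsd in WT, and most diamonds of the abundant genes lie left of their circles.

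The first comparison asked how these genes responded to PF in WT BMDMs. At a Benjamini-Hochberg adjusted p below 0.05 over all tested genes in edgeR's quasi-likelihood test, 11 of the 50 genes rose (22%, against 6.99% of all tested genes) and 2 fell (4%, against 8.95%). The V-ATPase held 7 of the 11 rises and none of the falls. Within it, 5 of the 8 V1 subunits rose (median of 0.53 on the log2 scale over the 8), whereas 1 of 6 V0 subunits and 1 of 2 accessory proteins rose, and the V0 median was -5.2e-05. Of the 26 hydrolases 3 rose and 1 fell (median -0.016), and of the 8 membrane proteins 1 rose and 1 fell (median -0.064), beside a median of 0.0048 over all tested genes. Scaled by library size alone the hydrolase, membrane protein and V0 medians were 0.063, 0.018 and 0.082, and the V1 median was 0.61. That scaling also brought the median of all tested genes from 0.0048 to 0.086, so the signs of the small medians were not settled. With the GC and length trend removed, 2 of 8 V1 subunits rose (median 0.21) and 2 of 6 V0 subunits (median 0.13), and the hydrolase and membrane protein medians were 0.052 and -0.064. In bulk RNA a change in the number of cells of a type and a change in RNA per cell cannot be told apart.

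Atp6v0d2 changed most. Its values were 12.6, 15.97 and 16.4 CPM with vehicle and 24.96, 33.04 and 37.6 with PF in the WT libraries, a log2 fold change of 1.09 (SE 0.21, edgeR adjusted p = 0.00743) or 2.12-fold. Every PF library lay above every vehicle library. It was the only member past the study's threshold of a log2 fold change beyond 0.8, which 1.52% of all tested genes passed. With the GC and length trend removed the log2 fold change was 0.62 (adjusted p = 0.00467). Its relative Atp6v0d1 was at 368 ± 46.2 CPM with vehicle and 369 ± 15.97 with PF (SD, n = 3 each), and the 95% interval of its log2 fold change ran from -0.16 to 0.17. Since Atp6v0d2 and Ctsk are also known from osteoclasts, a list of 8 osteoclast genes was looked at beside them. Its summed level was 106 to 122 CPM with vehicle and 95.4 to 97.8 CPM with PF. Most of this sum was Nfatc1 alone, at 91.5, 89.0 and 106 CPM with vehicle and 80.4, 78.1 and 79.5 with PF. The sum therefore says little about the other genes of the list. Calcr and Oscar were not analysed here, and of 5 tested genes Itgb3 rose while Mmp9 and Nfatc1 fell. With the GC and length trend removed 1 of the 5 rose and 0 fell, so both falls lost their call. The part of such cells in the Atp6v0d2 result was not tested.

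The V1 sector supplied the next changes. Atp6v1c1, the C subunit that joins the stalk of V1 to V0, was at 123, 120.4 and 112 CPM with vehicle and 161, 182 and 207 with PF. Its log2 fold change was 0.63 (SE 0.094, edgeR adjusted p = 0.00129), and 0.55 (adjusted p = 0.000261) without the GC and length trend. The PF libraries were all higher. Atp6v1g1, a subunit of the outer stalk, was at 127, 125 and 119 CPM with vehicle and 152, 182 and 188 with PF, a log2 fold change of 0.49 (SE 0.081, edgeR adjusted p = 0.00227) and of 0.26 (adjusted p = 0.0200) without the trend. Again no library overlapped. Atp6v0d2, Atp6v1c1, Atp6v1g1 and the hydrolase Man2b1 passed the threshold in all 23 alternative fits run, leaving out each library among them.

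The other 3 V1 subunits that rose depended more on the processing. Atp6v1a, the catalytic subunit that binds ATP, was at 217, 306 and 231 CPM with vehicle and 369, 384 and 509.7 with PF (log2 fold change 0.74, SE 0.19, edgeR adjusted p = 0.0236). It was 0.60 (adjusted p = 0.0737) without the trend, so the call was lost. Atp6v1d, of the central shaft, was at 57.4, 70.9 and 59.2 CPM and then 94.2, 87.97 and 96.6 CPM (log2 fold change 0.57, edgeR adjusted p = 0.00432), and Atp6v1h, a regulatory subunit, at 44.9, 52.2 and 37.1 and then 66.6, 63.3 and 77.2 CPM (log2 fold change 0.63, edgeR adjusted p = 0.00570). Without the trend these came to 0.16 (adjusted p = 0.335) and 0.27 (adjusted p = 0.238). Their transcripts have low GC content, at most 43.5%, beside a median of 50.6% over all tested genes and of 48.0% over the V1 subunits. The accessory protein Atp6ap2, also known as the prorenin receptor, was at 40.4, 58.1 and 52.3 CPM with vehicle and 57.4, 72.6 and 89.2 with PF, with an overlap of 1 library of each group (log2 fold change 0.54, edgeR adjusted p = 0.0370; without the trend 0.10).

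**Figure D2:**
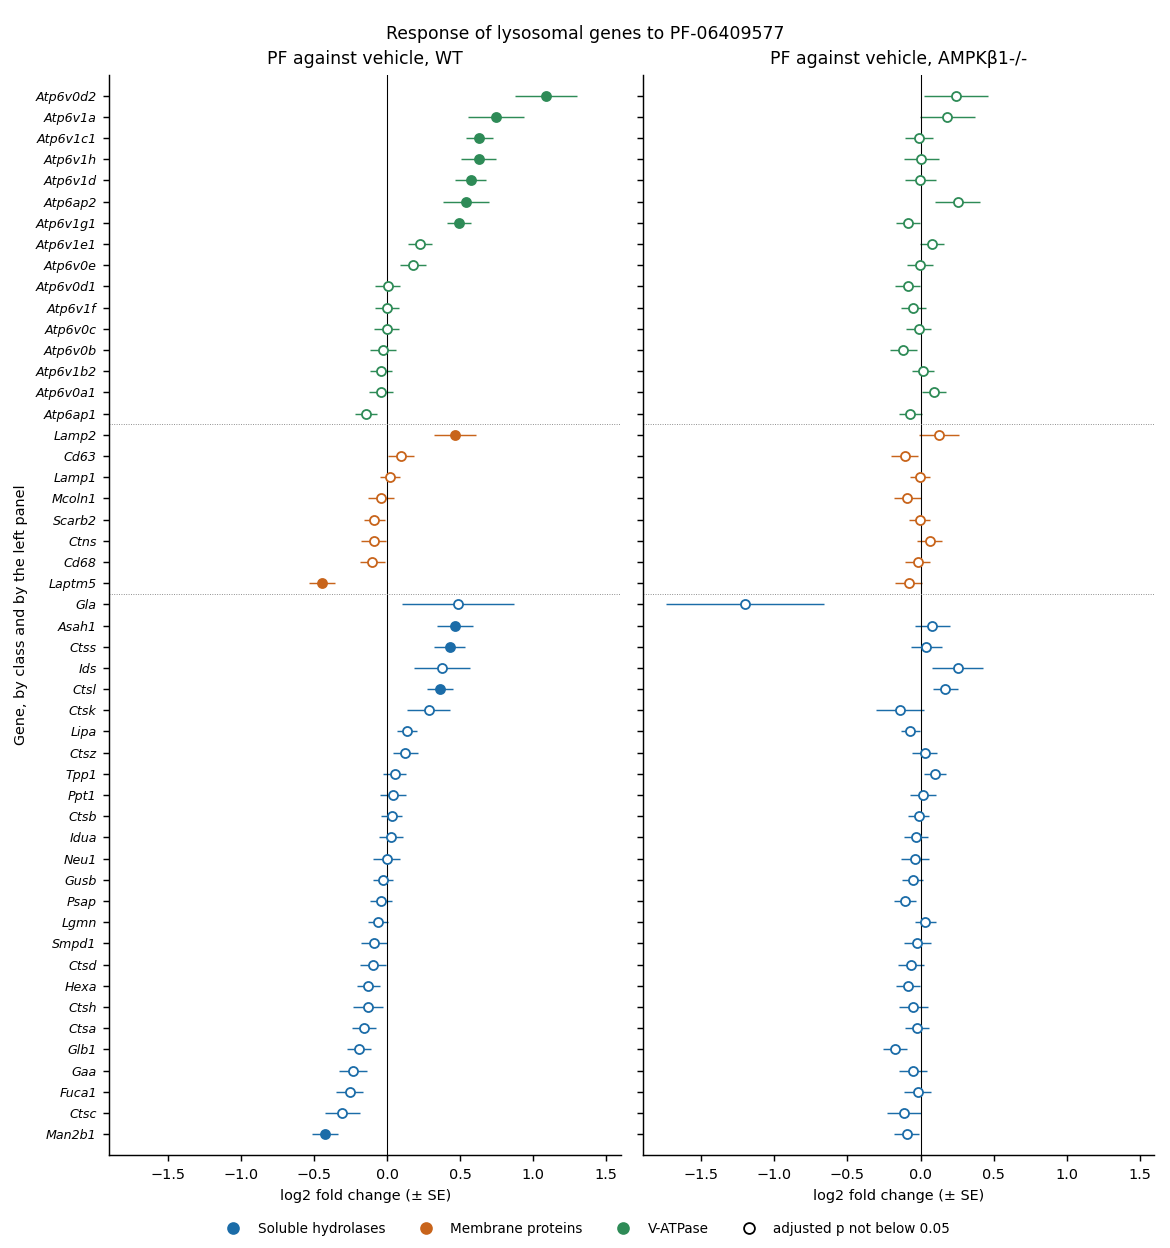
Log2 fold change (± SE) of each of the 50 genes for PF against vehicle in WT (left) and AMPKβ1-/- (right) BMDMs, grouped by class, with filled circles where the edgeR adjusted p was below 0.05. In WT 7 V-ATPase, 4 hydrolase and 2 membrane protein genes are filled, and in AMPKβ1-/- BMDMs none is.

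Among hydrolases, 2 cysteine proteases and acid ceramidase rose and 1 glycosidase fell in WT BMDMs. The cysteine protease Ctsl was at 1117, 1164 and 992 CPM with vehicle and 1371, 1371 and 1458 with PF (log2 fold change 0.36, SE 0.088, edgeR adjusted p = 0.0171), and 0.27 (adjusted p = 0.0418) without the trend. Ctss, the protease that trims the invariant chain of MHC class II, was at 1830.5, 2264 and 2147 and then 2729, 2733 and 2930.2 CPM (0.43, edgeR adjusted p = 0.0177). The acid ceramidase Asah1 was at 161, 187 and 166 and then 197, 233 and 278 CPM (0.46, edgeR adjusted p = 0.0240). In none of the 3 did a PF library overlap a vehicle library, but without the trend Ctss was at 0.072 and Asah1 at 0.071, and neither passed. The lysosomal α-mannosidase Man2b1 was at 1628, 1394 and 1545 CPM with vehicle and 1225, 1122 and 1053 with PF, and fell by 0.43 on the log2 scale (SE 0.088, edgeR adjusted p = 0.00766; without the trend -0.32, adjusted p = 0.00915). The abundant Ctsd, Ctsb and Psap had log2 fold changes of -0.10, 0.032 and -0.041, none of which passed.

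The membrane proteins went both ways. Lamp2, which shields the membrane and takes part in the delivery of autophagic cargo, was at 174, 242 and 191 CPM with vehicle and 257, 269.7 and 311 with PF (log2 fold change 0.47, SE 0.14, edgeR adjusted p = 0.0413). Lamp1 was at 2608, 2510.1 and 2351 and 2540.2, 2509 and 2509.6 CPM (0.017, 95% interval -0.12 to 0.15). Lamp2 transcripts have a GC content of 41.6% and Lamp1 transcripts of 48.5%, and without the trend Lamp2 was at 0.070 (adjusted p = 0.682) and Lamp1 at -0.11 (adjusted p = 0.310). Laptm5, a membrane protein of immune cells that steers receptors to the lysosome, was at 4380.1, 3521 and 3879 CPM with vehicle and 3122, 2889 and 2651 with PF. It fell by 0.44 on the log2 scale (SE 0.090, edgeR adjusted p = 0.00713), and its PF libraries were all lower (without the trend -0.30, adjusted p = 0.00437). Macrophage markers moved beside these genes, since Csf1r, Cd14 and Itgam, 3 of the 6 in the list, also fell with PF in WT (log2 fold changes -0.58, -0.43 and -0.39), and the summed level of the list was 8331 to 9190 CPM with PF against 10970.5 to 12218 CPM with vehicle. Their part in the fall of Laptm5 was not tested.

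**Figure D3:**
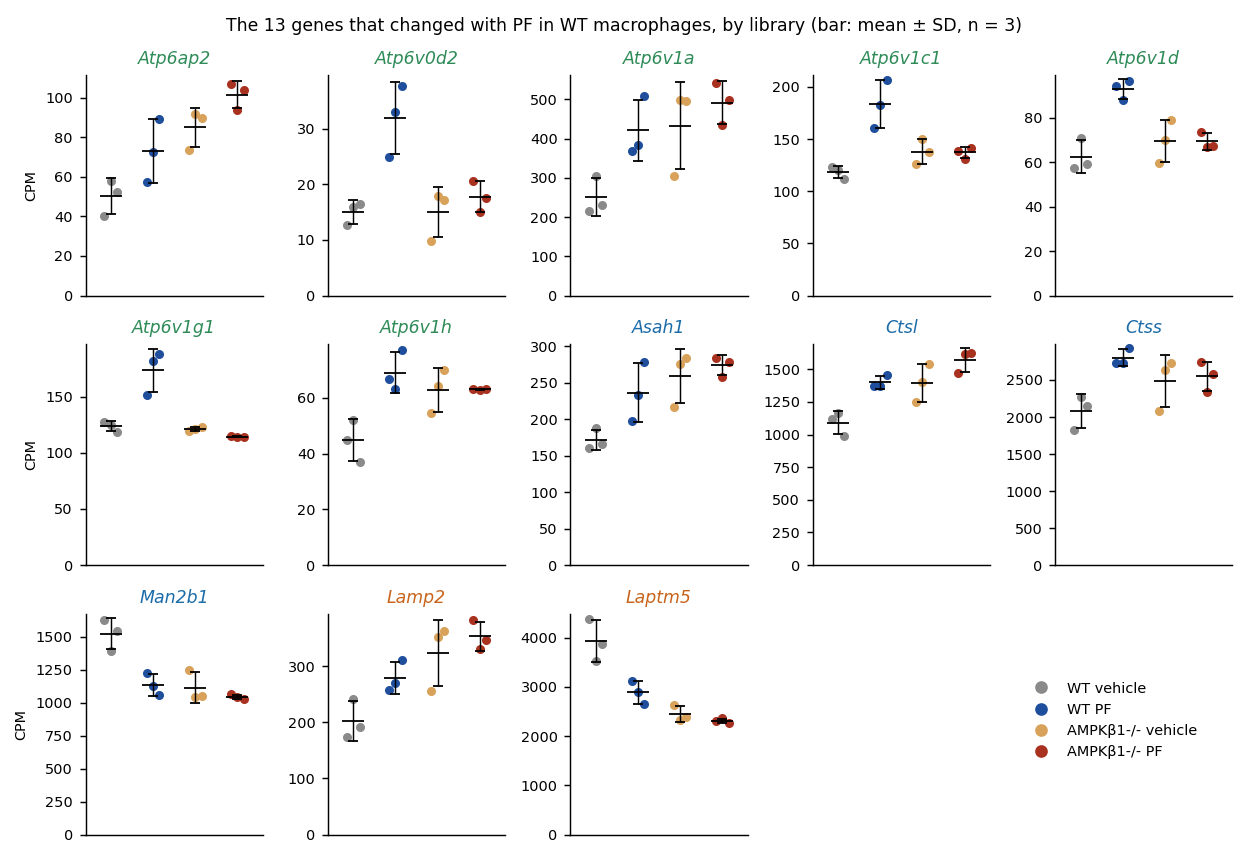
Level in CPM of the 13 genes that rose or fell with PF in WT BMDMs, with 1 point per library, a bar for the mean ± SD (n = 3) and a panel per gene, each axis starting at 0. For Atp6v0d2, Atp6v1c1, Atp6v1d and Atp6v1g1 all 3 WT PF libraries lie above every other library, whereas the means of Lamp2 and Atp6ap2 are higher in both AMPKβ1-/- groups than in WT with PF.

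These counts in WT moved with single libraries and with the trend, and so did those over all tested genes. When WT vehicle library 1 or 3 was left out the 11 rises became 6, while the 756 over all tested genes became 186 and 260. Without WT PF library 2 or 3 the rises became 5, and those over all tested genes 185 and 129. Without WT PF library 1 the 2 falls became 5, and the 969 over all tested genes became 1621. These fits tested 10911 to 10937 genes. With the GC and length trend removed 8 genes rose and 3 fell, beside 347 and 437 of all 10822 tested genes. The 6 genes that passed both ways in the same direction were Ctsl, Atp6v0d2, Atp6v1c1, Atp6v1g1, Man2b1 and Laptm5. The genes that passed only without the trend were Ctsz (0.28), Neu1 (0.22), Tpp1 (0.26), Atp6v0c (0.25) and, downward, Ctsc (-0.66). Over the 23 alternatives Lamp2 lost its call in 10 and Atp6ap2 in 8. Across the 50 genes the log2 fold change fell with GC content (Spearman's rho -0.59, n = 50), as it did across the 10786 tested genes with a known GC content (-0.69). Both are descriptions across genes of the same libraries, which are not independent. Counting only genes whose 3 PF libraries all lay on one side of the 3 vehicle libraries, 13 members were higher and 6 lower, beside 14.2% and 18.1% of all tested genes.

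**Figure D4:**
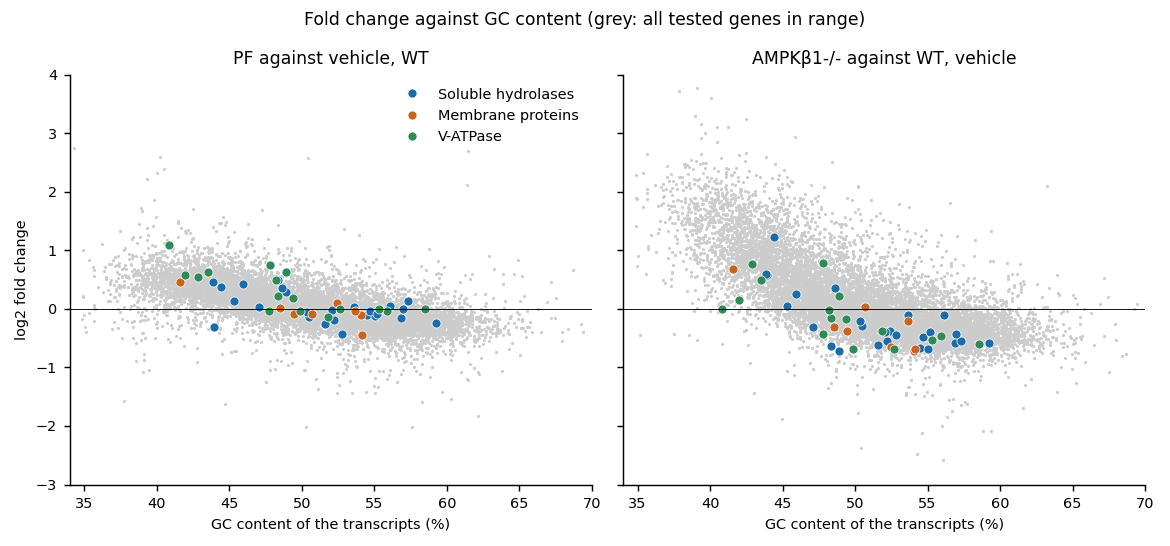
Log2 fold change against the GC content (%) of the transcripts for PF against vehicle in WT (left) and AMPKβ1-/- against WT with vehicle (right), with all tested genes in grey and the 50 genes coloured by class. Both clouds slope downward, and with vehicle Spearman's rho was -0.67 over the 50 genes and -0.74 over all 10786.

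In AMPKβ1-/- BMDMs edgeR called 0 of the 50 genes higher and 0 lower with PF, beside 0.0554% and 0% of all tested genes. DESeq2 and limma-voom also called 0, beside 47 and 21 higher and 1 and 0 lower of all 10822 tested genes. At an unadjusted p below 0.05 the edgeR counts were 0 higher and 1 lower, beside 464 and 75. The 1 gene was Gla, with 9, 14 and 6 counts against 6, 1 and 5. Libraries did not overlap for 1 gene that was higher with PF, Atp6ap2, and for 5 that were lower (8.21% and 6.28% of all tested genes). The genes that rose in WT had values here such as 9.75, 17.9 and 17.2 CPM with vehicle and 20.6, 15.1 and 17.6 with PF for Atp6v0d2, which overlap. Atp6v1c1 was at 126, 150.2 and 137 and 138, 131 and 142 CPM, and Atp6v1g1 at 119.8, 121 and 123 and 115, 114 and 114. The 95% intervals of their log2 fold changes were -0.18 to 0.67, -0.19 to 0.17 and -0.24 to 0.073.

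Whether the response differed between genotypes was tested directly, as the response in WT minus the response in AMPKβ1-/- BMDMs. In edgeR 2 of the 50 genes differed upward (0.176% of all tested genes) and 0 downward (0.240%). At an unadjusted p below 0.05 the counts were 9 and 2, beside 687 and 863 of all 10822 tested genes. DESeq2 called 4 and 0, beside 68 and 111. The 2 genes called by edgeR were V1 subunits, Atp6v1g1 (log2 difference 0.58, SE 0.11, edgeR adjusted p = 0.0417) and Atp6v1c1 (0.64, SE 0.13, edgeR adjusted p = 0.0480). Without the trend Atp6v1c1 kept 0.57 (adjusted p = 0.0128) and Atp6v1g1 0.34 (adjusted p = 0.0879). Both p-values were close to the threshold, and leaving out a single library gave 0 to 3 genes, with 0 for every library other than WT PF 1 and AMPKβ1-/- vehicle 1. Over all tested genes 133 differed upward without WT PF 1 and 31 without AMPKβ1-/- vehicle 1. Of the other genes that rose in WT, Atp6v1d was at 0.57 (95% interval 0.28 to 0.87), Atp6v1h at 0.62 (0.29 to 0.96) and Atp6v0d2 at 0.84 (0.25 to 1.44), whose edgeR adjusted p were 0.104, 0.124 and 0.242. The 2 genes that fell in WT, Laptm5 and Man2b1, were at -0.36 (-0.61 to -0.11) and -0.33 (-0.57 to -0.087), with edgeR adjusted p of 0.222 and 0.250. These 5 and the remaining genes that rose in WT, Ctsl, Ctss, Asah1, Lamp2, Atp6v1a and Atp6ap2, were not shown to respond differently between the genotypes.

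The next comparison set AMPKβ1-/- against WT BMDMs with vehicle. Most lysosomal genes were lower without AMPKβ1, with 29 of 50 lower (58%, against 30.0% of all tested genes) and 9 higher (18%, against 29.7%). Of 26 hydrolases 17 were lower and 5 higher, of 8 membrane proteins 5 and 1, and of 16 V-ATPase genes 7 and 3. All 9 glycosidases had negative fold changes and 7 passed, with a median of -0.55, but without the GC and length trend 6 passed, the median was -0.30, Idua was at 0.13 and Neu1 at -0.058 (adjusted p = 0.499). In the V-ATPase 4 of 6 V0 subunits were lower and none higher (median -0.53), while 2 of 8 V1 subunits were lower and 2 higher (median 0.063). Without the trend the V0 median was -0.29 (4 lower, none higher) and the V1 median turned to -0.20 (4 lower, 1 higher), and the hydrolases went to 13 lower and 1 higher. Scaled by library size alone, 23 of the 50 genes were lower and 13 higher, beside 1600 and 4296 of all 10822 tested genes. The V-ATPase median went from -0.17 to 0.045, while the V0 median was -0.31 and the V1 median 0.27. That scaling brought the median of all tested genes from -0.026 to 0.18. The WT vehicle libraries enter both this comparison and the PF comparison in WT, so the directions of the 2 are not independent and are only set side by side.

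The most abundant hydrolases were among those that fell. Ctsd was at 17084, 14594 and 15084 CPM in WT and 10575, 9202 and 9758 in AMPKβ1-/- BMDMs (log2 fold change -0.66, SE 0.091, edgeR adjusted p = 6.84e-05), and -0.31 (adjusted p = 0.000357) without the trend. Hexa, the α chain of β-hexosaminidase, was at 2809.6, 2400.3 and 2352 and 1614, 1544 and 1547 CPM (-0.68, edgeR adjusted p = 2.96e-05, and -0.30 without the trend). Psap went from 13235 ± 556 to 9437 ± 558 CPM and Ctsb from 15332 ± 619.8 to 11798 ± 133 CPM (SD, n = 3 each), log2 fold changes of -0.49 and -0.38 that came to -0.14 (adjusted p = 0.0253) and -0.29 (adjusted p = 0.000847) without the trend. In all 4 the highest AMPKβ1-/- library was below the lowest WT library. Such a lack of overlap was common, with 29 members lower and 8 higher, beside 3466 and 3344 of all 10822 tested genes. Ctsa, the protective protein for β-galactosidase and neuraminidase, fell by 0.58, the β-galactosidase Glb1 by 0.55 and the fucosidase Fuca1 by 0.62 on the log2 scale, and all 3 still passed without the trend (-0.26, -0.33 and -0.44). The protease Ctsk fell from 15.6 ± 1.999 to 9.45 ± 0.787 CPM (log2 fold change -0.72; -0.68 without the trend), and beside it the osteoclast genes Acp5 and Itgb3 also fell (-0.95 and -0.92).

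Membrane proteins and V0 subunits fell as well. Cd68 was at 2995, 2628 and 2672 CPM in WT and 1732, 1627 and 1672 in AMPKβ1-/- BMDMs (log2 fold change -0.72, SE 0.084, edgeR adjusted p = 2.7e-05; -0.35 without the trend). Laptm5 was -0.68, the tetraspanin Cd63 -0.65, Ctns -0.38 and Lamp1 -0.31, and all 4 passed with and without the trend, though with library size alone Ctns (-0.17) and Lamp1 (-0.097) did not. Among V0 subunits Atp6v0a1, which anchors the stalk, was at 659.5, 589.7 and 616 and 416, 382 and 357 CPM (-0.69, edgeR adjusted p = 3.26e-05; -0.78 without the trend). Atp6v0d1 was at 420.4, 349.6 and 334 and 232, 219.7 and 236 CPM (-0.68; -0.39 without the trend), and Atp6v0c at 1699, 1407 and 1413 and 1018, 973 and 1006 CPM (-0.59; -0.18). No library of these 4 genes overlapped between genotypes, as for 3466 lower genes of all 10822 tested. Atp6v0b (-0.46) and the V1 subunit Atp6v1f (-0.54) also fell but came to -0.043 (adjusted p = 0.612) and -0.11 (adjusted p = 0.117) without the trend. Another V1 subunit, Atp6v1b2, fell by 0.43 on the log2 scale and stood at -0.67 without it.

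The genes that were higher without AMPKβ1 mostly did not keep their direction. With the trend removed 28 genes were lower and 2 higher, beside 2452 and 1647 of all 10822 tested genes, and 24 members were called in the same direction both ways. Lamp2 was at 174, 242 and 191 CPM in WT and 255, 352 and 363 in AMPKβ1-/- BMDMs, a log2 fold change of 0.68 (edgeR adjusted p = 0.00119), which turned to -0.52 (adjusted p = 0.000228) without the trend. Atp6v1h turned from 0.49 to -0.48, and Ctsc, Ctss and Asah1 from 0.58, 0.26 and 0.59 to -0.19, -0.074 and -0.088. The acid lipase Lipa, Atp6v1d, Atp6v0d2 and Atp6v1e1 did not pass with the trend in place (0.042, 0.15, -0.0033 and -0.16) and passed without it, at -0.60, -0.81, -1.02 and -0.28. Atp6ap2 went from 0.76 to -0.000904 and Ctsl from 0.36 to 0.16. The 2 that stayed higher were Atp6v1a (0.78, and 0.52 with adjusted p = 0.0423 without the trend) and Ids. Ids was at 16.5, 29.1 and 25.9 CPM in WT and 45.2, 61.3 and 60.1 in AMPKβ1-/- BMDMs, a log2 fold change of 1.22 (SE 0.19, edgeR adjusted p = 0.000199; 0.55, adjusted p = 0.000749, without the trend). It was the only member past a log2 fold change of 0.8 in either direction, beside 17.8% of all tested genes.

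**Figure D5:**
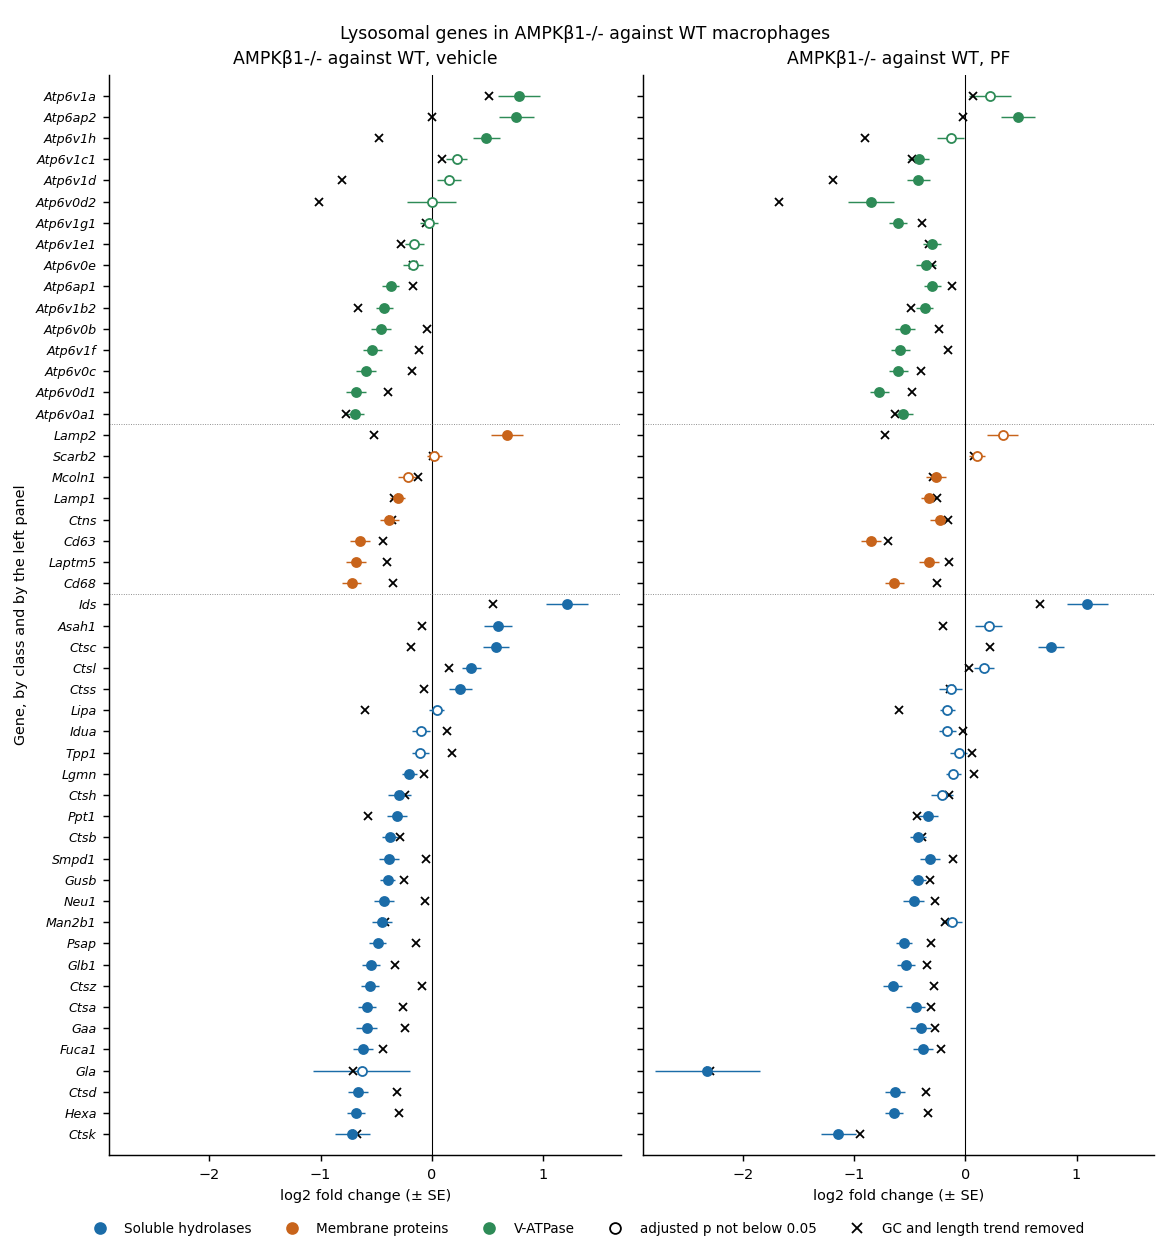
Log2 fold change (± SE) of AMPKβ1-/- against WT BMDMs with vehicle (left) and with PF (right) for the 50 genes by class, with filled circles where the edgeR adjusted p was below 0.05 and crosses for the value after the GC and length trend was removed. Most hydrolases, membrane proteins and V0 subunits lie left of 0 by either measure. In the left panel the crosses of Lamp2, Atp6v1h and Ctsc lie left of 0 while their circles lie right of it.

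The genotypes were also compared with PF in both. Against WT with PF, 34 of 50 genes were lower in AMPKβ1-/- BMDMs (68%, against 22.9% of all tested genes) and 3 were higher (6%, against 24.1%). Without the trend the counts were 35 and 2, beside 2521 and 1854 of all 10822 tested genes. With library size alone they were 25 and 6, beside 1359 and 3444. Of the 16 V-ATPase genes 13 were lower, including all 6 V0 subunits (median -0.58) and 6 of 8 V1 subunits (median -0.39), and 1 was higher. The lower genes included Atp6v1c1 (-0.42) and Atp6v1g1 (-0.60), which with vehicle were at 0.22 and -0.027 and did not pass. Both had risen in the same WT PF libraries, so these lower values are not independent of that rise. Beyond a log2 fold change of 0.8, which 14.3% of all tested genes passed, were Ids (1.10), Ctsk (-1.14), Cd63 (-0.85), Atp6v0d2 (-0.85) and Gla (-2.32), and without the trend they were at 0.67, -0.95, -0.70, -1.68 and -2.29. Cd63 was at 1320.1, 1462 and 1361 CPM in WT and 774, 794 and 731 in AMPKβ1-/- BMDMs, without overlap. Ctsk was at 21.95, 14.97 and 19.8 and 8.80, 7.85 and 9.11 CPM, also without overlap. With PF 38 members were lower and 5 higher without overlap, beside 3250 and 3236 of all 10822 tested genes. The Gla value rests on 12, 28 and 22 counts in WT and 6, 1 and 5 in AMPKβ1-/- libraries. The 3 that were higher were Ids, Ctsc (0.77; 0.22 without the trend) and Atp6ap2 (0.47; -0.021). Without WT PF library 3 the count of higher genes was 5, beside 2830 of all 10912 tested genes.

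Of the 13 genes that changed with PF in WT, 8 have a RefSeq promoter in the set used, and 2 of these, Ctsl and Atp6v1a, hold a CACGTG in the window. Over all 42 members with a promoter the share was 31.0%, and over all 27025 genes 8.09%. Asah1, Atp6v0d2, Atp6v1c1, Atp6v1g1 and Atp6v1h have no entry. Lamp1, with 4 copies, had a log2 fold change of 0.017. Mcoln1, Atp6v0b, Gla and Ctsd, with 2 in the whole window, had -0.041, -0.029, 0.49 and -0.10. Ctsa, with 2 matches over 2 annotated starts, had -0.16, and none of these passed. A link between the E-box and the response was not tested.

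Other genes of the same compartments, from lists written from general knowledge, are given by their counts. With PF in WT, 3 of 23 other hydrolases and related proteins rose and 2 fell (median -0.092). Of 17 other lysosomal membrane proteins 5 rose and 2 fell (median 0.0082), beside 6.99% and 8.95% of all tested genes. Without the trend these lists had 3 and 1 (median 0.033) and 2 and 1 (median 0.10). Among the hydrolase-list genes that rose were the protease Ctso (0.71), which came to 0.32 (adjusted p = 0.0670) without the trend, and the acetyltransferase Hgsnat (0.32), which still passed. Of 11 other V-ATPase and assembly genes 2 rose, Wdr7 and the V0 assembly factor Vma21, and 1 fell, Rogdi, but without the trend neither of the 2 passed. Of 13 genes for the delivery of enzymes to the lysosome none rose and 4 fell (median -0.17), among them the sorting receptor Sort1 (-0.32; -0.29 without the trend) and the adaptor subunit Ap1b1 (-0.62; -0.46). Without the trend 2 of the 13 fell and the median was -0.0041. In the TFEB group of 6 genes Fnip2 rose (0.60) and Tfeb and Tfe3 fell (-0.33 and -0.35), but without the trend Tfeb and Tfe3 were at -0.063 and -0.10 and did not pass.

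The same lists were compared between the genotypes with vehicle. Of the other hydrolases and related proteins 15 of 23 were lower and 1 higher (median -0.40). The other membrane proteins had 8 and 3 of 17 (median -0.20), and the delivery genes 7 and 0 of 13 (median -0.34). Over all tested genes 30.0% were lower and 29.7% higher. Without the trend these came to 12 and 1 (median -0.26), 7 and 1 (median -0.15) and 4 and 0 (median -0.13). Naglu, a glucosaminidase that removes sugars from heparan sulfate (-0.74; -0.30 without the trend), and the cholesterol-binding Npc2 (-0.46; -0.40) were examples. Of 11 other V-ATPase and assembly genes 3 were lower, including Tcirg1, the a3 subunit of V0 (-0.63; -0.29), and 3 higher, against 4 and 1 without the trend. In the TFEB group Tfeb was lower (-0.56; -0.26, adjusted p = 0.00714, without the trend), as were Tfe3 (-0.40; -0.26, adjusted p = 0.00275) and Flcn (-0.35; -0.071, adjusted p = 0.374), while Mitf (1.25; 1.14) and Fnip1 (2.22; 0.98) were higher.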

How the data were processed

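RNA sequencing of BMDMs was done by the authors with the NEBNext Ultra II Directional kit, adapter trimming with Trim Galore and quantification with Salmon. The deposited table holds the authors' estimated counts from Salmon, 1 value per gene and library, as whole numbers without normalization, so no further rounding was needed. Versions, genome build and filters are not given in the sources used here. Columns were assigned to groups by name, and library numbers only name a library. Same-numbered libraries had deviations from their group means with correlations of -0.17 to 0.32, so numbers were not read as pairs.

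Counts of all 12 libraries were fitted in R 4.3.3 with edgeR 4.0.16 (robust quasi-likelihood test, TMM scaling, filterByExpr), with 1 mean per group and Benjamini-Hochberg adjustment over 10822 genes. SEs were derived from the fold change and F statistic and are approximate, and so are the 95% intervals made from them. GC content and exon length (all annotated exons of a gene together) came from GENCODE M21 on GRCm38. There, 12703 genes were found under their symbol, 194 under an older one and 63 were unmatched. To remove the GC and length trend, natural splines (5 degrees of freedom) were fitted to each library and passed to edgeR as offsets. Depth was 8935609 to 14358180 counts per library, and no 2 libraries of a group were identical (chi-square per degree of freedom 2.19 to 18.1). The fit for PF in WT was tested on simulated counts. These held no GC or length trend and no genotype difference, so that test says nothing about either. Alternatives were other scalings, filters, tests (DESeq2 1.42.0, limma-voom with limma 3.58.1), the contrast's libraries alone, a library number block, the study's threshold and leaving out each library. The named genes were the 5 with the smallest p per class and direction in the PF comparison in WT and the genotype comparison with vehicle, those called with PF in AMPKβ1-/- BMDMs or in the difference between responses, those past a log2 fold change of 0.8, the 3 most and least abundant per class, Lamp1, Lamp2, Atp6v0d1 and Atp6v0d2. Atp6v1a and Atp6ap2, with the genes of other lists, were named after their values were seen. The members and lists were chosen with earlier results of these data known. Values of some genes of other lists are not reported here.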

Additional observations from a re-analysis of the deposited data

Results flagged for a closer look

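In the main fit the response to PF differed between WT and AMPKβ1-/- BMDMs, by a test of the difference itself, for 2 of the 50 genes. Over all tested genes 0.176% differed in that direction. For Atp6v1c1 the log2 difference was 0.64 (edgeR adjusted p = 0.0480), and over 22 alternatives it ran from 0.55 to 0.73 with adjusted p from 0.00285 to 0.180. Its call was lost in 14 of these 22. For Atp6v1g1 the log2 difference was 0.58 (edgeR adjusted p = 0.0417), and over 22 alternatives it ran from 0.34 to 0.67 with adjusted p from 0.00134 to 0.142. The call of Atp6v1g1 was lost in 12 of the 22. All 3 WT libraries with PF were higher than all 3 with vehicle in both genes, while the AMPKβ1-/- libraries overlapped for Atp6v1c1 and lay slightly lower with PF for Atp6v1g1. No group had enough libraries for a check for single stray values.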

How the results depend on the processing

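Under all alternatives the counts of members for PF in AMPKβ1-/- BMDMs stayed at 0 higher and 0 lower, and the counts lower in AMPKβ1-/- BMDMs stayed within 1.5 times of 29 and 34, other than at the study's threshold. That threshold (log2 fold change beyond 0.8) left 1 higher and 0 lower for PF in WT, 0 higher for the difference between responses, 1 higher and 0 lower for the genotypes with vehicle, and 1 higher and 4 lower with PF. For PF in WT, leaving out a library gave 5 to 11 higher and 2 to 5 lower, the contrast's libraries alone 1 lower, and the library number block with the trend removed 7 higher. Over all tested genes, leaving out a library gave 129 to 1622 higher and 217 to 1621 lower. The contrast's libraries alone gave 209 lower of 10472, and that block with the trend removed 371 higher of 10822. The 2 genes of the difference between responses became 4 with DESeq2 and 1 with DESeq2 size factors, library size alone, limma-voom, the trend removed, the library number block, or both together, and 0 to 3 when a library was left out. Over all tested genes the 19 called upward became 68 with DESeq2 and, in the order given, 13, 23, 16, 70, 16 and 74. That contrast has no fit to fewer groups. Library size alone gave 6 higher members for the genotypes with PF, and leaving out a library 2 to 5. Library size alone brought the median of all genes to 0.18 with vehicle and 0.15 with PF (log2, AMPKβ1-/- against WT). It moved the split of the genotypes with vehicle from 9 higher and 29 lower to 13 and 23. Over all tested genes that split went from 3216 higher and 3249 lower to 4296 and 1600. The 9 higher members with vehicle became 2 with the trend removed, with or without the block, while the 3216 over all tested genes became 1647, and 1637 with the block.

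With the trend removed, alone and together with the block, these reversed with vehicle: Ctsc (-0.19 and -0.19), Ctss (-0.074 and -0.073), Asah1 (-0.088 and -0.088), Lamp2 (-0.52 and -0.52) and Atp6v1h (-0.48 and -0.47). Atp6ap2 reversed at -0.000904 with vehicle (trend removed alone) and at -0.021 and -0.018 with PF. The cause was not tested. The library number block alone changed no other count beyond 1.5 times. Depth limits Gla most.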
